A study of Mus musculus with 2 samples.

Results

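Antigen-presenting nuclei with B cell or dendritic cell transcripts were few in brown adipose tissue: 70 of 29175 barcodes, 31 in the library labelled KO and 39 in the library labelled Flox. They were chosen by detected genes alone. A member had at most 10% mitochondrial UMIs, and Ppara and Cidea together made up less than 0.3% of its UMIs. It showed at least 2 of the 4 MHC class II genes Cd74, H2-Ab1, H2-Eb1 and H2-Aa, and at least 1 of 6 further genes (Gpr141, Btla, Wdfy4, Bank1, Fgr and Flt3). It showed at most 1 of 4 macrophage genes (F13a1, Mrc1, Cd163 and Adgre1) and at most 1 of 7 genes of other lineages (Flt1, Cyyr1, Col6a3, Dcn, Ttn, Abcc9 and Skap1). Levels of these genes therefore describe the selection and are not findings. The tissue came from mice of 4 weeks, and single nuclei were profiled with 10x Genomics 3' v3 chemistry in 1 library per genotype. KO stands for a knockout of Nfe2l1, named Nfe2l1(f)-KO in the series design, and Flox for mice with the floxed gene. The sources used here give neither the Cre driver nor the deleted part of the gene nor the number of animals per library.

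B cells and dendritic cells are professional antigen-presenting cells. They load peptides onto MHC class II heterodimers with the help of the invariant chain (Cd74) and the H2-DM chaperones, and show them to CD4+ T cells. B cells carry a membrane immunoglobulin receptor and are built around the factor Pax5. Conventional dendritic cells fall into a cross-presenting type 1, marked by Clec9a and Xcr1, and a type 2, marked in mice by Cd209a and Clec10a. In adipose tissue both lie among many more macrophages, which can also carry MHC class II.

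MHC class II genes are known for a shared promoter layout, so the proximal promoters of H2-Eb1 and H2-Aa, which belong to the rule, and of H2-DMb1, a chaperone of peptide loading, are shown from the RefSeq windows of 250 bases before to 50 after each gene start (build GRCm38.p6, which is mm10). MHC class II promoters are known for an X box, bound by the RFX complex, followed by a Y box, bound by NF-Y, and the coactivator CIITA acts there. Capitals mark a match to TNGNAACT and then a match to TGATTGG, both patterns being written after these sequences had been read.
H2-Eb1 (chr17:34305759-34305827, plus strand): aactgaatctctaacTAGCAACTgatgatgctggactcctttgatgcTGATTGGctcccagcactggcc
H2-Aa (chr17:34287852-34287921, minus strand): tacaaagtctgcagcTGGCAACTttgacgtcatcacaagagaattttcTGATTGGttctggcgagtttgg
H2-DMb1 (chr17:34153080-34153149, plus strand): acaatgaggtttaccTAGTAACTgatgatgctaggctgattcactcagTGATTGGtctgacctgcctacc
The gap between both boxes was 24 bases in H2-Eb1 and 25 bases in H2-Aa and H2-DMb1. TNGNAACT occurred on either strand in 12.3% of 32851 promoter windows and TGATTGG in 7.82%. Both in this order within 40 bases on the gene's strand occurred in 7 windows (0.0213%). Of the other genes of peptide loading and MHC class II with windows, H2-DMb2, H2-Oa, H2-Ob and H2-Eb2 held TGATTGG alone, and the 2 windows of H2-DMa held neither pattern. Of the 6 further rule genes, whose windows were all present, Fgr had the first pattern and none had the second. A match describes letters and not a bound site.

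Members made up 0.24% (31 of 12907, exact Clopper-Pearson interval 0.163 to 0.341) of barcodes within the mitochondrial limit in the library labelled KO and 0.243% (39 of 16046, 0.173 to 0.332) in that labelled Flox. The ratio of shares was 0.988 (0.596 to 1.63), so no difference was detectable at this depth. Among the barcodes that were members, macrophage or T/NK, they took 6.77% (31 of 458) and 6.1% (39 of 639). With 1 library per genotype no difference between genotypes had a replicate check. All intervals are at 95%, cover counting error only and leave out the spread between nuclei and mice.

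The libraries held 43080725 UMIs in 13030 barcodes labelled KO and 46528077 in 16145 labelled Flox, with medians of 2755 and 2375 UMIs per barcode. Members were shallower, with a median of 1671 (827 to 3825) UMIs labelled KO and 1640 (513 to 5387) labelled Flox, so 1 UMI weighs heavily in a single nucleus. Fewer than 1000 UMIs were found in 1 member labelled KO and in 10 labelled Flox. The part of this in how barely members met the rule, or in shares of members with a UMI, was not tested. Their mitochondrial share had a median of 1.93% in members labelled KO and 0.585% in members labelled Flox, against 1.11% and 0.423% over all barcodes, and its part in the differences below was not tested. Between the libraries 65 barcode sequences were shared, 0 of them by members. Nfe2l1, the targeted gene, had 5 UMIs in 5 members labelled KO and 3 UMIs in 3 members labelled Flox, too few to compare. In adipocyte barcodes it stood at 310 CPM (UMIs of the gene scaled to 1000000 UMIs of the class) in the library labelled KO and 132 CPM in that labelled Flox. The transcript thus went against the label, libraries are called by their labels, and every direction below rests on those labels.

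The rule was met with a margin in some members and barely in others, and more often barely among those labelled Flox. All 4 MHC class II genes were seen in 19 members labelled KO and 17 labelled Flox, and exactly 2 in 6 and 14. Exactly 1 of the 6 further genes carried 5 members labelled KO and 13 labelled Flox. One macrophage gene was present in 7 and 13 members, and 1 gene of another lineage in 3 and 14. Just outside the rule, 21 and 32 barcodes failed only by showing 2 macrophage genes. Another 6 and 12 failed only by showing 1 MHC class II gene, and 11 and 15 only by showing none of the 6 further genes. The highest Ppara and Cidea share of a member was 0.281% labelled KO and 0.265% labelled Flox.

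Most members held markers of B cells or of dendritic cells, and few held both. This was read from 16 B cell and 14 dendritic cell markers that the rule did not use. A member was called B-lead or dendritic-lead by which of both lists had more markers detected. B-lead members numbered 13 of 31 labelled KO (41.9%, 24.5 to 60.9) and 14 of 39 labelled Flox (35.9%, 21.2 to 52.8). The ratio of these shares was 1.17 (0.506 to 2.68). Dendritic-lead members numbered 16 (51.6%, 33.1 to 69.8) and 21 (53.8%, 37.2 to 69.9), while 2 and 4 members showed no marker of either list. The B-lead members labelled KO each had 7 to 12 B cell markers, with a median of 9, and those labelled Flox had 1 to 12, with a median of 6.5. Dendritic-lead members had 1 to 6 dendritic markers labelled KO and 1 to 9 labelled Flox. The other list was at 0 in 11 of 13 and 11 of 14 B-lead members and in 13 of 16 and 20 of 21 dendritic-lead members. A lead of 1 marker only was found in 0 B-lead and 1 dendritic-lead members labelled KO, and in 2 B-lead and 4 dendritic-lead members labelled Flox.

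**Figure D1:**
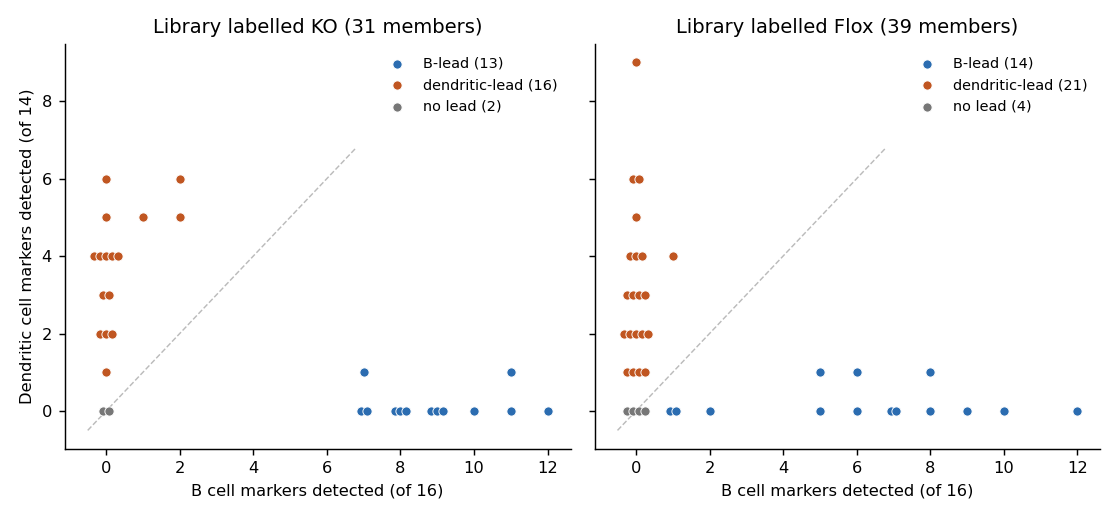
Number of B cell markers (horizontal axis, of 16) against dendritic cell markers (vertical axis, of 14) detected in each member, with members labelled KO on the left and labelled Flox on the right; each point is 1 member, ties are spread sideways and the dashed line marks equal numbers. The 13 B-lead members labelled KO lie at 7 or more B cell markers, the 14 labelled Flox reach down to 1, and no member has 3 or more markers of both lists.

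Among the genes of the rule, Bank1 and Flt3 were each seen in 1 of the 2 leads and not in the other. Bank1, a scaffold of B cell receptor signalling, had 100 UMIs in 13 of 13 B-lead members labelled KO and 77 UMIs in 13 of 14 labelled Flox. It had 0 UMIs in the 16 and 21 dendritic-lead members, and 8 UMIs in 3 of the 4 members labelled Flox with no lead. Flt3, the receptor for the growth factor of dendritic cells, had 9 UMIs in 5 of 16 dendritic-lead members labelled KO and 5 UMIs in 4 of 21 labelled Flox, and 0 in B-lead members. Gpr141, an orphan receptor, was in 6 of 16 and 9 of 21 dendritic-lead members, against 0 of 13 and 1 of 14 B-lead members. Btla, an inhibitory receptor of lymphocytes, was in 13 of 13 and 10 of 14 B-lead members and in 9 of 16 and 5 of 21 dendritic-lead members. Wdfy4, which is needed for cross-presentation, was in 9 of 13 and 6 of 14 B-lead members and in 14 of 16 and 13 of 21 dendritic-lead members. Of its 84 UMIs in dendritic-lead members labelled Flox, 43 came from 1 nucleus.

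**Figure D2:**
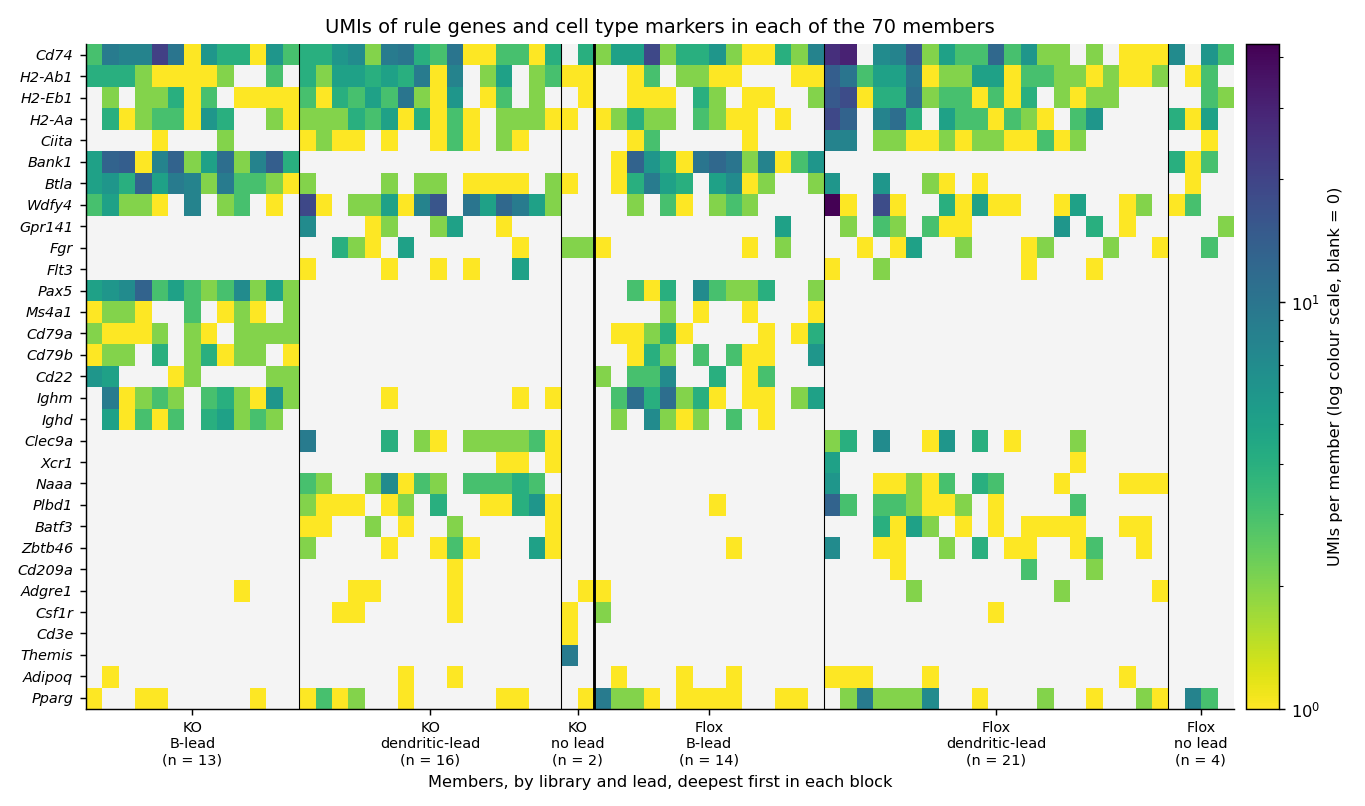
UMIs (log colour scale, blank where 0) of genes of the rule and of cell type markers, 1 row per gene, in each of the 70 members, 1 column per member, with libraries and leads in blocks and the deepest member first in each block. Bank1 and the B cell markers lie mostly in the B-lead blocks, Naaa or Plbd1 in 15 of 16 and 15 of 21 dendritic-lead members, and Clec9a in part of them, while the members with no lead show no marker of either list and 3 of those labelled Flox have Bank1.

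Transcripts of the B cell receptor and of its master factor were seen in most B-lead nuclei. Pax5, Cd79a, Cd79b, Ighm and Ighd belong to the list that set this lead, so their presence describes it. Pax5 had 63 UMIs in 13 of 13 B-lead members labelled KO and 28 UMIs in 9 of 14 labelled Flox. The receptor chains Cd79a or Cd79b were seen in 12 of 13 and 11 of 14. Ighm, the heavy chain of IgM, was in 11 of 13 and 11 of 14, and also in 3 members labelled KO that were not B-lead. Ighd, the heavy chain of IgD, was in 10 of 13 and 7 of 14 B-lead members. Both heavy chains were in the same nucleus in 10 labelled KO and 6 labelled Flox, a pair known from mature naive B cells. The light chain Igkc, which stood outside that list, was in 10 and 7 members, all B-lead. Among switched classes, Ighg3 had 16 UMIs in 2 B-lead members and Ighg2b had 2 UMIs in 1 labelled KO, against 0 UMIs of either labelled Flox. Igha, Ighe, Ighg1 and Ighg2c were at 0 in both libraries. The Ighg genes are near copies of each other, so reads could be split among them. Of 6 plasma cell markers only Sdc1 was seen, with 1 UMI in a dendritic-lead member labelled KO.

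Dendritic-lead nuclei held markers of conventional type 1 and, in fewer nuclei, of type 2. These markers belong to the list that set the lead, and Wdfy4, a gene of the rule, was seen in 10 of the 10 members labelled KO and 7 of the 8 labelled Flox that had a type 1 marker, so the rule itself could favour type 1. Clec9a, a receptor for dead cells, or Xcr1, a chemokine receptor, was seen in 10 of 16 members labelled KO and 8 of 21 labelled Flox. Cd209a or Clec10a, both lectins, was seen in 1 of 16 and 5 of 21. No member showed both pairs. Cadm1, an adhesion molecule of type 1 cells in mice that stood outside the marker list, was found in 9 and 7 dendritic-lead members. Of these, 9 labelled KO and 6 labelled Flox also had Clec9a or Xcr1. Naaa or Plbd1 was seen in 15 of 16 and 15 of 21. Both are also expressed in adipocytes here: Plbd1 stood at 220 and 246 CPM in adipocyte barcodes labelled KO and Flox, against 783 and 827 CPM in dendritic-lead members and 0 and 41.1 CPM in B-lead members. Siglech, a marker of plasmacytoid dendritic cells, was at 0 in all 31 and 39 members. The markers of migrating dendritic cells Ccr7, Ccl22 or Ccl17 were seen in 0 of 16 and 1 of 21 dendritic-lead members.

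The name did not hold for all members. At least 1 of 16 macrophage markers was detected in 14 of 16 dendritic-lead members labelled KO and 20 of 21 labelled Flox. At least 3 were detected in 5 and 8 dendritic-lead members and in 0 and 3 B-lead members. Of the 2 members labelled KO with no lead, 1 held 42 UMIs from 9 of 15 T and NK cell markers, including 9 UMIs of Themis. All other members labelled KO together had 2 such UMIs. The other held 8 of the 9 UMIs of Mertk, an engulfment receptor of macrophages. Among the 4 labelled Flox with no lead, 1 held 55 UMIs of skeletal muscle genes, including 33 of Ttn, the giant sarcomere protein. It also held 27 UMIs of adipocyte markers. All 4 had at least 2 macrophage markers, with 29 UMIs together and at most 12 in 1 member. A B-lead member labelled Flox with 5387 UMIs, the deepest of all, had only 1 B cell marker but 66 UMIs from 13 of 16 macrophage markers. It supplied 22.1% of the UMIs of the B-lead members labelled Flox, and sums by lead are also given for members with a lead of at least 2 where that moved them, a choice made after seeing the data.

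Beside the other barcodes of the tissue, members stood out by the genes that chose them. Cd74 averaged 2743 CPM in members labelled KO and 2977 CPM in those labelled Flox, and was seen in 30 of 31 and 35 of 39. Macrophage barcodes, defined by at least 2 of the macrophage genes (343 labelled KO and 537 labelled Flox), had 518 and 703 CPM of Cd74. T/NK barcodes (84 and 63) had 11.8 and 8.84 CPM, and adipocyte barcodes (8032 and 7941) 6.65 and 6.76 CPM. A Cd74 UMI was present in 1.48% and 1.8% of adipocyte barcodes, at medians of 3271 and 2978 UMIs, and whether it came from those nuclei was not tested. At least 2 MHC class II genes were detected in 26.8% and 29.6% of macrophage barcodes, in 1.19% and 0% of T/NK barcodes (0 of 63, where 3 counts would be 4.76%) and in 0.299% and 0.416% of adipocyte barcodes. Bank1 and Wdfy4 were not limited to members. Macrophage barcodes had a Bank1 UMI in 23.9% and 16.4% and a Wdfy4 UMI in 36.4% and 33.9%, at 178 and 149 CPM of Bank1 and 204 and 216 CPM of Wdfy4. Btla was at 2.09 and 3.32 CPM there, and at 165 and 70.7 CPM in T/NK barcodes.

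By the smaller of both ratios of CPM in members over all other barcodes, the 20 leading genes outside the rule were mostly of the B lineage. Cd22, Pax5, Cd79a, Cd79b, Bcl11a and Ikzf3, all known from B cells, were among them, with Clec9a from the dendritic list. Pax5 stood at 1080 CPM in members and 0.234 CPM in the rest labelled KO, and at 397 and 0.477 CPM labelled Flox. Genes of antigen processing were H2-DMb1, Ciita and the protease Napsa. Kynu, which degrades kynurenine, had 120 CPM in members and 0.0937 CPM in the rest labelled KO, and 439 and 0.282 CPM labelled Flox. Alcam, an adhesion molecule, was the most abundant of the 20, at 2212 and 34.2 CPM labelled KO and 2580 and 34.4 CPM labelled Flox. Others were Chst3, Pkib, Tmem163, Slc38a1 and Myo1g. Since these genes belong to the nuclei that were selected, no test was made of them.

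The machinery around MHC class II was shared by both leads. Its loading and regulation list (13 genes in the files) summed to 3649 CPM (2902 to 4530) in B-lead members labelled KO and 3494 CPM (2791 to 4320) labelled Flox, and to 3070 CPM (2492 to 3741) and 3076 CPM (2548 to 3680) in dendritic-lead members. Macrophage barcodes reached 2450 and 2117 CPM, T/NK barcodes 112 and 194 CPM. Marchf1, a ubiquitin ligase that removes MHC class II from the surface, had 1217 CPM in members labelled KO and 865 CPM labelled Flox. H2-Ob, a brake on peptide loading in B cells, had 9 and 4 UMIs in B-lead members and 4 and 2 in dendritic-lead members. Ciita, the master coactivator, lay on the dendritic side, with 14 UMIs in 10 of 16 dendritic-lead members labelled KO and 37 UMIs in 15 of 21 labelled Flox, against 3 and 5 UMIs in B-lead members. The B cell receptor signalling list, part of which set the lead, summed to 14997 and 12289 CPM in B-lead members, or 14997 and 14821 CPM with a lead of at least 2, and to 6578 and 5273 CPM in dendritic-lead members.

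**Figure D3:**
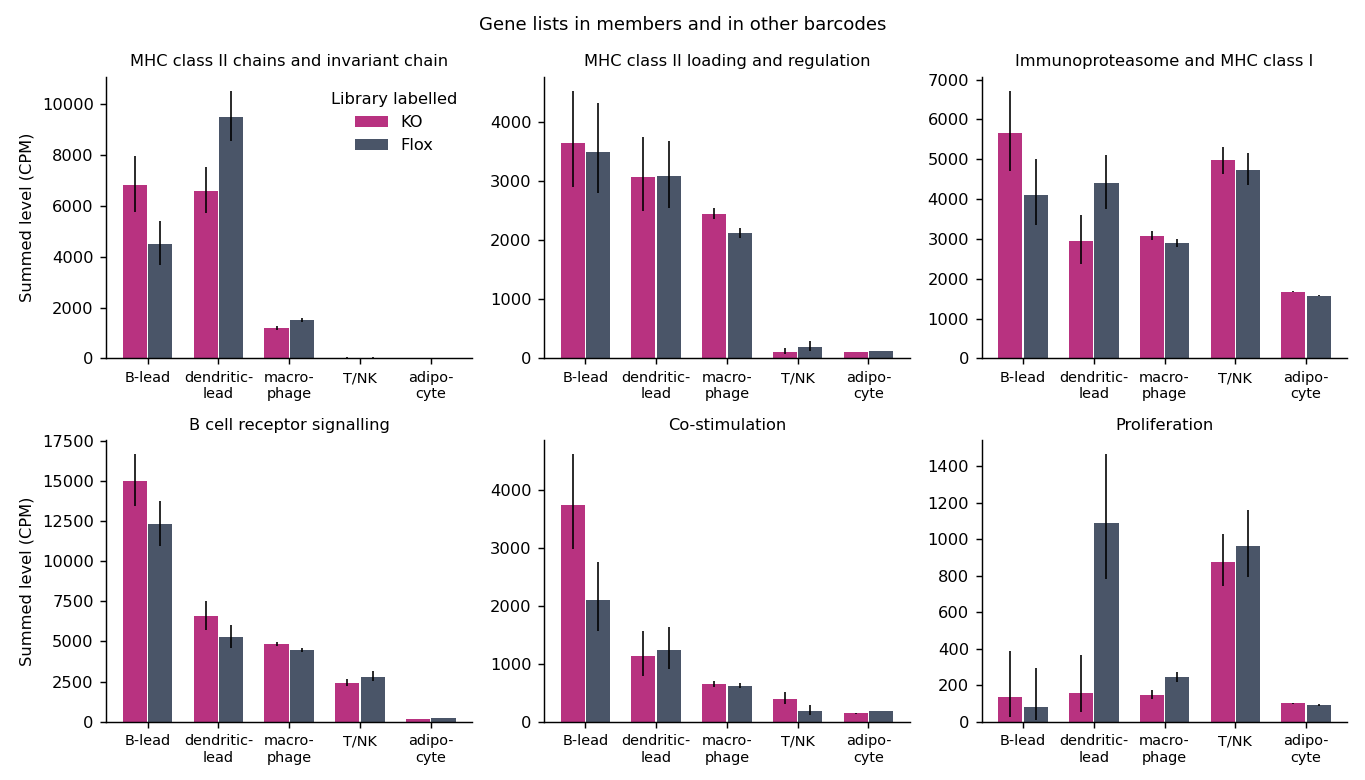
Summed level in CPM (vertical axes from 0) of 6 gene lists in B-lead and dendritic-lead members and in macrophage, T/NK and adipocyte barcodes, with the library labelled KO left of that labelled Flox and bars for exact 95% Poisson intervals. MHC class II chains are highest in members, the proliferation list reaches 1086 CPM in dendritic-lead members labelled Flox against 157 CPM labelled KO, and T/NK barcodes reach 876 and 964 CPM.

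B-lead and dendritic-lead nuclei also differed in genes outside both marker lists. Among 1017 genes that reached 30 UMIs in members, B-lead nuclei exceeded dendritic-lead nuclei by 2-fold or more in both libraries for 95 (9.34%), and fell short by as much for 123 (12.1%). Ripor2, an inhibitor of RhoA in lymphocytes, had 104 UMIs in 13 of 13 B-lead members and 0 UMIs in dendritic-lead members labelled KO, and 70 in 12 of 14 and 4 labelled Flox. Ets1, a lymphoid transcription factor, had 28 UMIs against 0 labelled KO, and 15 against 1 labelled Flox. Others on the B side were Cmah, Tmem163, Cd55, Chst3, Ralgps2, Pgap1, Ikzf3 and Prkcb. Mertk also met this rule, but 32 of its 33 B-lead UMIs came from the deep member with macrophage markers. On the dendritic side, Cadm1 had 0 UMIs in B-lead and 55 in dendritic-lead members labelled KO, and 0 and 77 labelled Flox. Cdk14, a kinase of the Wnt pathway, had 0 and 81 UMIs labelled KO and 1 and 80 labelled Flox. Tbxas1, thromboxane synthase, had 0 and 41 UMIs labelled KO and 0 and 29 labelled Flox. Nav1, Fgfr1, St3gal5, Rab7b, Zc3h12c, Tiam1, Mctp1, Cd226 and Ust had at most 1 UMI in the B-lead members of either library. Some of these rested on few nuclei. Zc3h12c had 3 UMIs in 3 dendritic-lead members labelled KO and 30 UMIs in 3 labelled Flox. Rab7b had 17 UMIs in 9 and 16 UMIs in 4. Irf8, a factor of type 1 dendritic cells, had 2 and 6 UMIs in B-lead members and 31 and 30 in dendritic-lead members.

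Between the libraries, most genes of the members lay within 2-fold. Among the 1039 genes that reached 30 UMIs over all members, 69 (6.64%) were higher by 2-fold or more in members labelled KO and 76 (7.31%) were lower by as much, and the median log2 ratio KO over Flox was 0.03. No test could be made with 1 library each. Genes of the rule are given here as values only, since they chose the members and members labelled Flox met the rule barely more often. H2-Aa stood at 1080 CPM labelled KO and 1573 CPM labelled Flox, Btla at 1457 and 808 CPM, Bank1 at 1714 and 1205 CPM and Wdfy4 at 2126 and 1432 CPM. Among members with at least 3 of the 4 MHC class II genes, the log2 ratio of Wdfy4 was 0.04.

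**Figure D4:**
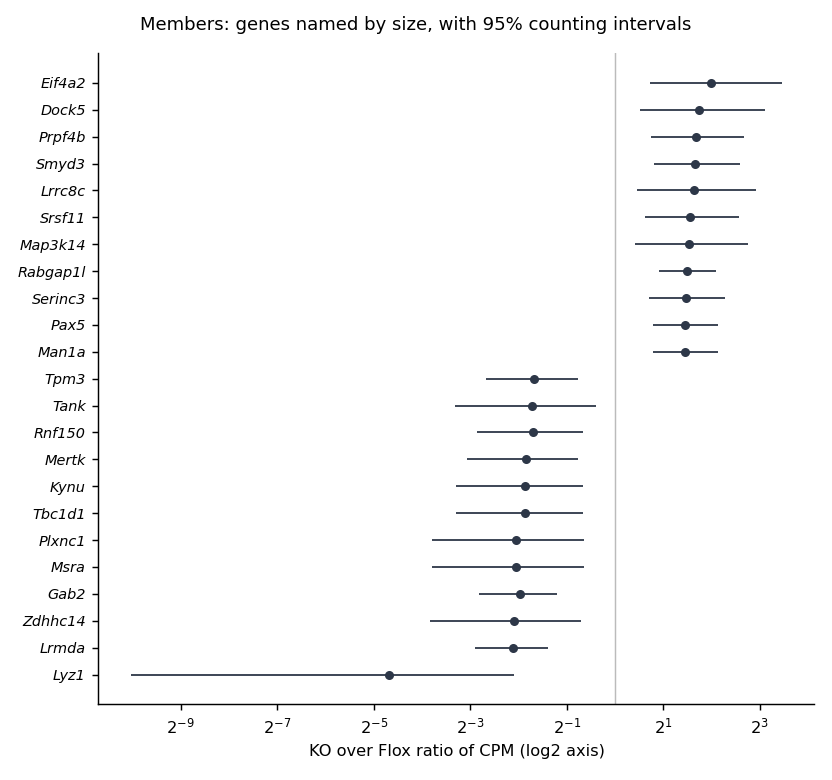
Ratio of CPM in members labelled KO over members labelled Flox (horizontal log2 axis) for 23 genes named by size, 1 row per gene; points are ratios and lines exact 95% intervals of counting error. The genes were picked for being far from 1 and therefore lie apart from it, from Eif4a2 at 3.97 down to Lyz1 at 0.039.

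The named genes furthest above 1 had ratios down to 2.72 for Man1a and Pax5 and up to 3.97 for Eif4a2, a helicase of translation initiation. Eif4a2 had 23 UMIs in 17 members labelled KO and 7 UMIs in 7 labelled Flox. It was also higher in all other barcodes of the library labelled KO, at 228 CPM, than in those of the library labelled Flox, at 130 CPM, while the ratios of the other named genes above 1 lay near or below 1 there. Man1a, a Golgi mannosidase, had 57 UMIs in B-lead members labelled KO and 15 labelled Flox, and 4 and 10 UMIs in dendritic-lead members (ratio 0.485, 0.111 to 1.68). Rabgap1l, which acts on Rab GTPases, had 2003 and 534 CPM in B-lead members (ratio 3.75, 1.99 to 7.57, or 3.02, 1.57 to 6.27, with a lead of at least 2) and 1222 and 620 CPM in dendritic-lead members (1.97, 1.15 to 3.42). Pax5 had 2804 and 1151 CPM in B-lead members (2.44, 1.54 to 3.95, or 1.81, 1.14 to 2.94, with a lead of at least 2). Dock5, Prpf4b, Smyd3, Lrrc8c, Srsf11, Map3k14 and Serinc3 also belonged to this group, and Map3k14 encodes NIK, the kinase of noncanonical NF-kappaB signalling.

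Several of the 12 named genes lower in members labelled KO rested on 1 Flox nucleus. The deep member with macrophage markers held 69 of the 99 UMIs of Lrmda, 33 of 81 of the adaptor Gab2, 32 of 39 of Mertk and 10 of 26 of Zdhhc14. Members labelled KO had 19 UMIs of Lrmda, 17 of Gab2, 9 of Mertk and 5 of Zdhhc14. Lyz1, a lysozyme whose near copy Lyz2 can share its reads, had 1 UMI labelled KO and 31 labelled Flox, 18 of these in 1 member with no lead. More widely spread were Kynu, with 7 UMIs in 4 members labelled KO and 31 in 10 labelled Flox, and Rnf150, with 10 and 39 UMIs and at most 7 in 1 member labelled Flox. Tbc1d1, a Rab GTPase activator, had 7 and 31 UMIs, with at most 4 in 1 member labelled Flox. Msra, which repairs oxidised methionine, had 0 UMIs in dendritic-lead members labelled KO, where 3 counts would be 94 CPM, and 17 UMIs in 7 of 21 labelled Flox, at 439 CPM. Plxnc1, Tank and Tpm3 completed this group. Among members with at least 3 MHC class II genes, which leave out the deep member, the log2 ratios of Lrmda and Mertk were -0.20 and 2.46, against -2.08 and -1.78 over all members. The value of Mertk rests on 8 UMIs labelled KO, all in 1 member with no lead. Among members with no macrophage gene, the log2 ratio of Lyz1 was 1.63 against -4.12. It rests on 1 UMI labelled KO, since every member labelled Flox with a Lyz1 UMI had a macrophage gene.

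The leukocyte and B cell receptor signalling lists held shares of higher genes near or below that of all genes, and their medians, which were above 0 over all members, shrank or turned with a stricter member rule. At 1.5-fold, 198 (19.1%) of all 1039 genes were higher and 167 (16.1%) lower in members labelled KO. Of 12 measured leukocyte genes, 2 were higher by this size and 1 lower, with a median log2 ratio of 0.27. Arhgap15, a Rac regulator, had 4938 CPM in members labelled KO and 3133 CPM in those labelled Flox, and Lcp1, the actin bundler L-plastin, 257 and 595 CPM. Of 12 measured B cell receptor signalling genes, 1 was higher, Dapp1 with 30 and 14 UMIs, and 0 lower, with a median of 0.34. Of 13 haematopoietic transcription factors, 4 were higher and 0 lower, with a median of 0.40. Of 7 measured B cell markers, 2 were higher and 0 lower, with a median of 0.44, and of 4 dendritic markers 1 was higher and 0 lower, with a median of 0.10. The 4 measured chains of MHC class II had 0 genes past this size either way and a median of -0.22. These list medians depended on which members entered. With at least 3 MHC class II genes per member, the medians of B cell markers, dendritic markers, B cell receptor signalling and transcription factors were -0.17, -0.45, -0.05 and -0.05. With no gene of another lineage, that of B cell markers was -0.05 and that of dendritic markers -0.13.

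Summed adipocyte transcripts in members were lower in those labelled KO. Whether they came from the members or from other cells was not tested. All 4 measured adipocyte markers were lower by at least 1.5-fold, with a median of -1.58, and the 14 markers summed to 93 UMIs (1594 CPM) labelled KO and 266 UMIs (3770 CPM) labelled Flox, a ratio of 0.423 (0.33 to 0.537). The median was 3 UMIs of these markers per member in both libraries, and the most in 1 member was 9 labelled KO and 34 labelled Flox. The difference in sums thus rested partly on members labelled Flox with many such UMIs. Pparg, the adipocyte master factor, had 15 UMIs in 12 members labelled KO and 62 in 23 labelled Flox. Macrophage barcodes had 2816 and 4470 CPM of the same list and T/NK barcodes 4839 and 5834 CPM, so the difference ran the same way in other leukocyte barcodes. Its part in the lower or higher values of other genes was not tested. Of 16 macrophage markers, which summed to 1834 CPM in members labelled KO and 2792 CPM labelled Flox, 3 and 2 were at 0, including Lyve1 and Folr2 in both libraries. The deep member with macrophage markers alone held 66 of the 197 UMIs of these markers labelled Flox. The 9 fibroblast markers summed to 47 and 54 UMIs, 34 and 26 of them from Dpp4, and the 8 endothelial markers to 35 and 27 UMIs, 24 and 18 of them from Pecam1. Monocyte markers summed to 18 and 33 UMIs, mast cell and granulocyte markers to 9 and 9, pericyte markers to 3 and 1 and Schwann cell markers to 10 and 13.

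MHC class I and immunoproteasome genes, which the rule did not use, summed to 2944 CPM in dendritic-lead members labelled KO and 4394 CPM labelled Flox (0.67, 0.515 to 0.867), and to 5652 and 4110 CPM in B-lead members (1.38, 1.05 to 1.81, or 1.12, 0.851 to 1.49, with a lead of at least 2). Nlrc5, the coactivator of MHC class I, had 407 and 853 CPM in dendritic-lead members and 757 and 247 CPM in B-lead members, or 757 and 332 CPM with a lead of at least 2. H2-K1, a class I heavy chain, had 533 and 1008 CPM in dendritic-lead members and 1914 and 1480 CPM in B-lead members, or 1914 and 1936 CPM with a lead of at least 2. Per nucleus, the MHC class I and immunoproteasome genes had a median of 0.28% (0.0895 to 0.726) of a dendritic-lead member's UMIs labelled KO. Labelled Flox it was 0.345% (0 to 0.839), and 1 member held 29 of the 170 UMIs there. Whether the ratios of CPM differ between both leads was not tested. The 4 MHC class II genes chose the members, so their levels are a description and no ratio is read from them. Per nucleus, they had a median of 0.616% (0.185 to 1.35) of a B-lead member's UMIs labelled KO and 0.424% (0.0557 to 2.14) labelled Flox, and of 0.6% (0.134 to 1.78) and 0.631% (0.113 to 1.93) in dendritic-lead members. These ranges overlap widely, and 1 dendritic-lead member labelled Flox alone held 74 of the 368 UMIs there.

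Genes of the NF-kappaB pathway and of co-stimulation lay on both sides of 1 between the libraries, and those named here were picked after their values were seen. Nfkb1, the p105 and p50 subunit, had 7 UMIs in 6 of 16 dendritic-lead members labelled KO and 37 UMIs in 12 of 21 labelled Flox, at 219 and 956 CPM (ratio 0.229, 0.0863 to 0.521). In B-lead members it had 7 and 8 UMIs. Relb had 1 UMI in members labelled KO and 15 UMIs in 9 members labelled Flox (ratio 0.0806, 0.00192 to 0.524). Cd40, the receptor for T cell help, had 0 UMIs labelled KO and 13 UMIs in 9 members labelled Flox, 6 in B-lead and 7 in dendritic-lead members. The upper limit of its ratio was 0.397. The other way, Rela had 6 UMIs labelled KO and 3 labelled Flox, Cd83, a surface marker of dendritic cell maturation, 8 and 5, and Cd274, which encodes PD-L1, 11 and 5. The whole list of Toll-like receptors and NF-kappaB (18 genes) summed to 74 UMIs labelled KO and 112 labelled Flox, a ratio of 0.799 (0.588 to 1.08), and 0 of its 2 measured genes were 1.5-fold higher and 1, Nfkb1, lower. By lead its ratio was 1.53 (0.883 to 2.7) in B-lead members and 0.581 (0.377 to 0.881) in dendritic-lead members, where it had 35 and 73 UMIs, with 21 of those labelled Flox in 1 member. The 10 co-stimulation genes summed to 2074 and 1588 CPM, of which Btla made up 85 of 121 and 57 of 112 UMIs. Cd86, a ligand of CD28, had 5 UMIs in B-lead members labelled KO and 0 labelled Flox, and 6 and 12 UMIs in dendritic-lead members.

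Most UMIs of proliferation genes came from dendritic-lead members labelled Flox. The 16 genes summed to 5 UMIs in 4 of 16 dendritic-lead members labelled KO and 42 UMIs in 8 of 21 labelled Flox, a ratio of 0.144 (0.0446 to 0.364), or 0.0786 (0.0156 to 0.246) with a lead of at least 2. B-lead members had 3 and 2 UMIs. At least 3 of the 16 genes were detected together in 0 of 31 members labelled KO (3 counts would be 9.68%) and in 5 of 39 labelled Flox, all of them dendritic-lead. Top2a, the topoisomerase of mitosis, had 0 UMIs labelled KO and 11 UMIs in 5 members labelled Flox, and Diaph3, a formin of cell division, 2 and 9 UMIs. The highest sum in 1 member was 2 UMIs labelled KO and 13 UMIs labelled Flox. Of the 16 genes, 13 labelled KO and 6 labelled Flox were at 0 in all members.

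**Figure D5:**
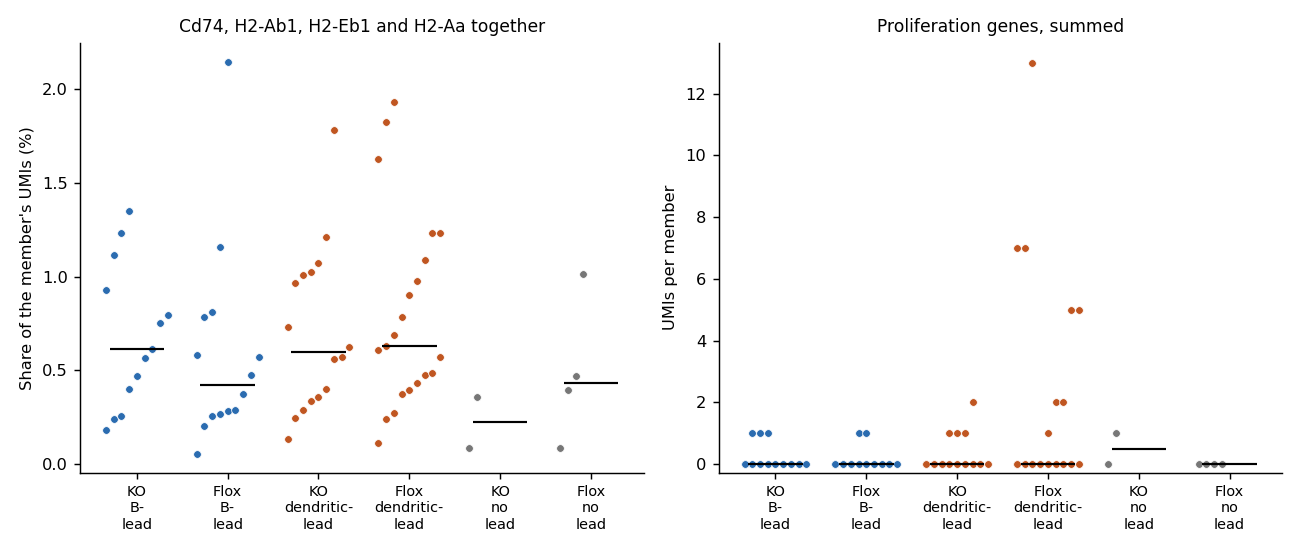
Left, share in percent of each member's UMIs from Cd74, H2-Ab1, H2-Eb1 and H2-Aa; right, UMIs of 16 proliferation genes summed per member; each point is 1 member, grouped by lead and with the library labelled KO left of that labelled Flox, and lines are medians. The shares overlap between libraries in each lead, and the 5 members with at least 5 proliferation UMIs are all dendritic-lead members labelled Flox.

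Summed migration genes were higher in B-lead members labelled KO than in those labelled Flox, and Itga4 supplied 34 of the 84 UMIs labelled KO. The 14 genes summed to 84 UMIs (3738 CPM) in B-lead members labelled KO and 35 UMIs (1439 CPM) labelled Flox, a ratio of 2.6 (1.73 to 3.97), or 2.5 (1.61 to 4.02) with a lead of at least 2. In dendritic-lead members the sums were 1848 and 1499 CPM (1.23, 0.843 to 1.8). Itga4, the integrin alpha 4 chain, had 34 UMIs in 10 of 13 B-lead members labelled KO and 8 UMIs in 5 of 14 labelled Flox (4.6, 2.09 to 11.5), or 34 and 3 UMIs with a lead of at least 2, against 27 and 30 UMIs in dendritic-lead members. Cxcr4 and Cxcr5, chemokine receptors of B cells, had 8 and 1 UMIs and 8 and 3 UMIs in B-lead members labelled KO and Flox. Ccr2, which guides monocyte-derived cells, was dendritic, with 15 and 10 UMIs. The difference between both leads in this ratio was not tested.

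Proteasome genes, the best known targets of the NFE2L1 protein, were too sparse in members for comparison gene by gene. The 32 genes of the 20S and 19S particles summed to 88 UMIs (1509 CPM) labelled KO and 115 UMIs (1630 CPM) labelled Flox, a ratio of 0.926 (0.693 to 1.23), and none reached 30 UMIs. Psmd14, its deubiquitinase, had 4 and 9 UMIs, and Psmd1, a scaffold, 6 and 7. No difference was detectable at this depth in B-lead (1736 and 1480 CPM) or dendritic-lead members (1441 and 1654 CPM).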

How the data were processed

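Single nuclei of brown adipose tissue were profiled in 1 library per genotype, and the deposited files hold raw UMI counts per gene and barcode. Per the file headers, the authors made these counts in Cell Ranger 5.0.0. The build was mm10, per the submitters' processing notes. Ambient RNA was not removed here and doublets were kept, with their removal tried as an alternative. Members, compared classes and 25 gene lists were chosen with earlier results of these data known.

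Counts were summed over the barcodes of a class and given as CPM of that class's total. Intervals are exact (Poisson for a level, Clopper-Pearson for a share, conditional binomial for a ratio), at 95%. Log2 ratios carry 0.5 UMI added to each sum. With 1 library per genotype no p-value was computed. Macrophage barcodes had at least 2 of the 4 macrophage genes, T/NK barcodes at least 2 T/NK genes, and adipocyte barcodes at least 0.3% of UMIs from Ppara and Cidea. Named genes between libraries had at least 30 UMIs in members, were at least 1.5-fold apart, had UMIs in at least 5 members of the library with more and were not below all other barcodes there. The 12 furthest apart each way were named, and mitochondrial, ribosomal, haemoglobin, sex-linked, immunoglobulin and unnamed genes were left out. The 20 genes with the largest ratio over all other barcodes and the 12 furthest apart each way between leads were named by similar rules. A few genes that these rules name are not reported here. Examples of each list and genes with a subset role were picked after their values were seen. Of 22620 gene IDs, 22565 had a position in GENCODE vM21, and 42 IDs shared a symbol with another. Alternatives changed the member rule, doublets, depth (thinning to 1000 UMIs), scaling (edgeR 4.0.16 TMM factors among others) and the minimum count. Scripts ran in Python 3.11.15 with NumPy 2.4.6, SciPy 1.17.1, pandas 2.3.3, matplotlib 3.10.9 and scanpy 1.11.5 (Scrublet), and in R 4.3.3, and were checked on simulated counts.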

Additional observations from a re-analysis of the deposited data

How the results depend on the processing

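The share of members labelled Flox was 0.156% with at least 3 MHC class II genes, 0.162% with no macrophage gene and 0.156% with no other-lineage gene, against 0.243%. The counts of genes at least 2-fold higher and lower labelled KO, 69 and 76 of 1039, were 43 and 42 of 659 with at least 3 MHC class II genes and 44 and 34 of 641 with no other-lineage gene. Lower genes numbered 39 of 557 with no macrophage gene and 49 of 736 with a lead of at least 2, a choice made after seeing the data. With a minimum of 10 UMIs the counts were 407 and 467 of 3496, and with 100 UMIs 10 and 2 of 102. Lists with a median above 0, 8 of the 11 with at least 3 measured genes, numbered 2 of 10 with at least 3 MHC class II genes, 4 of 8 with no other-lineage gene and 5 of 11 with doublets removed. The cause was not tested. Of 35 genes followed, Mertk (2.46) and Flt3 (-0.70) turned direction with at least 3 MHC class II genes, and Lyz1 (1.63) with no macrophage gene. All 3 rested on few UMIs. Mertk had 8 UMIs in 1 member labelled KO and 1 UMI labelled Flox. For Flt3, 1 member that left held 5 of the 9 UMIs labelled KO. Lyz1 had 1 UMI, labelled KO. Of the values followed, 16 further ones moved and 331 did not. Doublet removal took 0 members labelled KO and 2 labelled Flox. Thinning left out barcodes with fewer than 1000 UMIs, among them 1 member labelled KO and 10 labelled Flox. After thinning, 29 and 31 barcodes met the member rule. Scaling moved the median log2 ratio over all genes by at most 0.04. Averaging CPM over members instead of summing UMIs still moved 4 of the 11 list medians and 2 of the 35 genes. Over all alternatives, 29 values of list medians moved and 72 did not. No paired analysis was possible because each genotype had 1 library and the labels carry no replicate numbers. Few members and 1 library each limit every comparison, and low counts in single nuclei limit all shares of members with a UMI.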

Other observations

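Interferon response genes, a list of 24, summed to 3017 CPM in members labelled KO and 2381 CPM in members labelled Flox, a ratio of 1.27 (1.02 to 1.57). Of 3 measured genes, 1 was at least 1.5-fold higher labelled KO, Ifi203, with 43 and 29 UMIs. Of all 1039 genes measured, 19.1% were higher by this size. In B-lead members the list stood at 3204 and 2219 CPM and in dendritic-lead members at 2882 and 2610 CPM. Irf7, a factor of the interferon response, had 5 UMIs labelled KO and 0 labelled Flox.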
